A study of Mus musculus with 2 samples.

Results

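Cadherin and protocadherin genes were described across the cell classes of the developing peripheral retina of the mouse. The members were all genes whose symbol is Cdh followed by a number or begins with Pcdh, which took 92 of the 32285 features in the tables, and 72 of these had at least 20 UMIs (unique molecular identifiers, the counted transcripts) over both libraries. The 72 comprise all 5 type I classical cadherins, 12 of 13 type II cadherins, 1 of 5 other Cdh genes (Cdh13), 11 of 12 unclustered protocadherins, 3 of 14 alpha, 19 of 22 beta and all 21 gamma protocadherins. Just under the limit were Pcdha12 and Pcdhb12 with 19 UMIs each, and just inside it were Pcdha4 with 20 and Pcdhb15 with 27. The cells came from a-Cre;Td embryos at E13.5, in which a Cre transgene active in the peripheral retina turns on the red fluorescent protein TdTomato, and both groups carried these alleles. Labelled cells of the peripheral retina, including the ciliary margin zone (CMZ, where optic cup and future ciliary body meet), were dissociated with papain, sorted by flow cytometry and sequenced with a droplet 3′ kit. There was 1 library from pigmented embryos and 1 from albino embryos, each a pool of 3. The pigmented library bears the strain label Tyrc2j, the name of an albino allele of tyrosinase, against its title, and the albino library bears the label Swizz ICR. The titles were followed: were the libraries exchanged, each ratio between them would turn round, and were both albino, no ratio would compare pigmentation. Pigmentation cannot be told apart from strain, pool, library or the sex of the pooled embryos.

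Cadherins are membrane proteins whose extracellular repeats bind calcium and, mostly, the same or a related cadherin on a neighbouring cell. Classical cadherins are tied to actin through the catenins and hold the adherens junctions of the neuroepithelium, and neurons use particular type II cadherins when they sort, branch and choose partners. Unclustered protocadherins bind more weakly, and several act on actin through the WAVE complex. The clustered alpha, beta and gamma protocadherins lie in tandem arrays, single neurons transcribe few of them by choosing among their promoters, and the gamma genes are known for keeping the branches of one amacrine cell apart.

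The windows directly before the transcription starts of Pcdh17, Pcdh19 and Cdh6 are shown because these 3 genes marked photoreceptor-like, neurogenic and CMZ-like cells in the results that follow. Each has 250 bases, 5′ to 3′ on the strand of the gene, from RefSeq (GRCm38.p6): Pcdh17 at chr14:84443313-84443562 on the plus strand, Pcdh19 at chrX:133688994-133689243 and Cdh6 at chr15:13173676-13173925, both on the minus strand. Capitals mark matches to the motifs searched.
Pcdh17: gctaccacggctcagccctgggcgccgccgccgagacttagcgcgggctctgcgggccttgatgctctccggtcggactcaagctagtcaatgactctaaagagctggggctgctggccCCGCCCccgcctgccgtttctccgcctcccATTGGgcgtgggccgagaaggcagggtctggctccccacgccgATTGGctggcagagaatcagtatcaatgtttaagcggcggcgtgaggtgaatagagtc
Pcdh19: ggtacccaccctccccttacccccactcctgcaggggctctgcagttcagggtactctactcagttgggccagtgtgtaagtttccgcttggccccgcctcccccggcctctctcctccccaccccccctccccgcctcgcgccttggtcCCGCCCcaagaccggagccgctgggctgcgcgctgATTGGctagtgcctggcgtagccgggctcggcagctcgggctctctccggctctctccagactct
Cdh6: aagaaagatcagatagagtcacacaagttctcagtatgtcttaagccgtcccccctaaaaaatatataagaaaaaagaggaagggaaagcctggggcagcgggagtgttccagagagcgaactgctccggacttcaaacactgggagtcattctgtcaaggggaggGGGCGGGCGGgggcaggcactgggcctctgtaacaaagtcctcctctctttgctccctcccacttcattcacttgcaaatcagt
The search covered both strands for the E-box motif CAGCTG, the E-box motif CAGATG with its complement CATCTG, the homeodomain motif TAATTA, the GC box GGGCGG with its complement CCGCCC, the TATA box TATAAA with its complement TTTATA, and the CCAAT box with its complement ATTGG. These motifs were chosen with the sequences in view. The Pcdh17 window had 64.8% G and C, with CCGCCC starting 131 bases before the transcription start and ATTGG starting 101 and 58 bases before it. In the Pcdh19 window (69.2% G and C) CCGCCC started 100 and ATTGG 65 bases before the start. The Cdh6 window (51.2% G and C) held an overlapping pair of GGGCGG, 84 and 80 bases before the start. Of 32851 such windows of all genes, 32.7% held GGGCGG or its complement and 33.8% held CCAAT or its complement. With complements included, CAGCTG was in 13% of these windows, CAGATG in 14.4%, the TATA box in 12.4% and the homeodomain motif in 4.84%. Among the 23 windows examined, of 20 members (the clustered genes and Cdh1, Cdh2, Cdh3, Cdh4, Cdh5, Cdh11, Cdh13, Pcdh1 and Pcdh11x were not examined), the GC box was found in 9, the CCAAT box in 14, each of the E-box motifs and the TATA box in 2 and the homeodomain motif in 1.

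The matrices held 6089 pigmented and 3676 albino barcodes with 69965728 and 46271969 UMIs. After filtering 5741 and 3462 cells remained, with medians of 10342 and 11178 UMIs, and 8 barcodes occurred in both libraries. Of 30 clusters, 24 were named by marker genes and form 10 classes, in each case called "-like": CMZ, retinal progenitor cell (RPC), neurogenic, photoreceptor, amacrine or horizontal, retinal ganglion cell (RGC), retinal pigment epithelium (RPE), mesenchyme, surface ectoderm and macrophage. RGC-like cells made up 9.84% of pigmented and 20% of albino cells, RPC-like cells 25.1% and 21.7%, and CMZ-like cells 14.2% and 10.1%. The 12 RGC markers summed to 20855 and 22265 CPM (UMIs of these genes per 1000000 UMIs of the same cells) in RGC-like cells against 110 and 109 CPM in RPC-like cells. The sum of the CMZ markers did not separate CMZ-like from RPC-like cells. It was lower in CMZ-like cells, at 2275 and 2254 CPM, than in RPC-like cells, at 2937 and 2853 CPM. Unnamed cluster 0 had 3305 and 3208 CPM of them. The 6 unnamed clusters held 24.9% and 22.4% of the cells, and among them was cluster 12, a mixture led by haemoglobin, crystallin, Pf4 and Acta2 genes. Cells with Xist and no Y-linked UMI were 29.2% of the pigmented and 96.1% of the albino library.

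All levels are given in CPM, with the pigmented library named first. With 1 library a group there is no test between groups, and the intervals, exact at 95%, cover counting error only. A member was called for a class when it stood at least 2-fold above, or below, all other cells in each library, among genes with 20 UMIs in each library. That minimum counted the cells of the class itself, so a gene could pass it through the class where it was high. Of 63 members tested, 47 were called higher in at least 1 class, 34 of them with intervals past 1 in both libraries, and 41.8% of all 14446 genes tested were called higher in at least 1 class. Classes were built without the members, yet from other genes of the same cells, so these calls describe the classes and are no test.

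**Figure D1:**
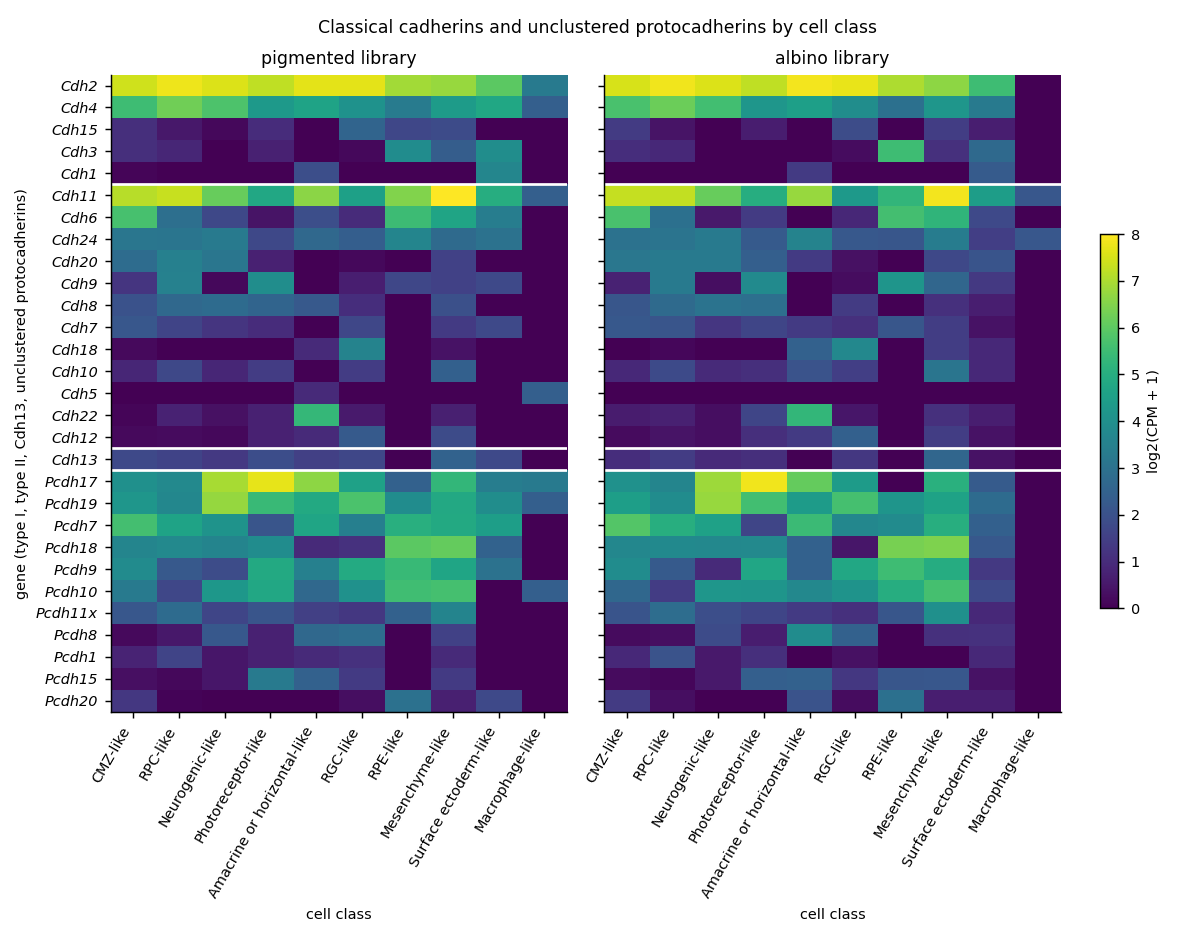
Levels of the 29 classical, Cdh13 and unclustered members as log2(CPM + 1), by gene (rows) and cell class (columns), in the pigmented (left) and albino (right) library. Cdh2 is bright in the columns of retinal classes and far darker in macrophage-like cells. Within their own rows, Cdh22, Cdh18 and Pcdh17 stand out in 1 to 3 columns each.

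Among type I cadherins, Cdh2 (N-cadherin, the main cadherin of neuroepithelial junctions) had the most UMIs of any member, 22593 over both libraries. Its level over all cells was 195 CPM (interval 192 to 198) in the pigmented and 193 CPM (189 to 197) in the albino library. RPC-like cells had 220 and 226 CPM, RGC-like cells 205 and 211 CPM and photoreceptor-like cells 150 and 149 CPM. Retinal classes thus lay in a narrow band, and Cdh2 was called for none of these classes. Mesenchyme-like cells had 109 and 99.7 CPM, surface ectoderm-like cells 61.8 and 44.9 CPM, and macrophage-like cells 8.81 and 0 CPM, where a count of 0 allows up to 12.9 CPM.

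Cdh4 (R-cadherin, named for the retina) was highest in RPC-like cells at 75.9 CPM (71.8 to 80.2) and 72.3 CPM (66.8 to 78). Neurogenic-like cells followed with 54 and 47.1 CPM and CMZ-like cells with 44.8 and 50.9 CPM. The level of Cdh4 was lower in RGC-like cells, 15.8 and 14.3 CPM against 54 and 47.7 CPM in all other cells, photoreceptor-like cells had 18.5 and 17.4 CPM, and amacrine or horizontal-like cells, for which it was not called, had 24.1 and 21.6 CPM. RGC-like cluster 23, led by Tbx5 and Crabp1, stood apart from its class with 55.3 and 72.5 CPM of Cdh4. RPC-like cells and this small RGC-like cluster therefore lay above the RGC-like, photoreceptor-like and amacrine or horizontal-like classes in Cdh4.

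Cdh3 (P-cadherin, a cadherin of epithelia that include the pigment epithelium) was called higher in RPE-like and surface ectoderm-like cells. RPE-like cells, 45 pigmented and 16 albino, had 13.7 CPM (6 UMIs) and 44.4 CPM (13 UMIs), and without the cell with the most Cdh3 UMIs the albino log2 ratio to other cells was 3.43 in place of 5.52. Surface ectoderm-like cells had 14.2 CPM (6 UMIs) and 5.64 CPM (19 UMIs). Cdh1 (E-cadherin of surface epithelia) had too few UMIs for a class call, with 11.9 and 3.86 CPM in surface ectoderm-like cells. Cdh15 (M-cadherin, known from muscle) was called higher in RGC-like cells at 4.94 and 2.59 CPM, 4.27-fold and 3.19-fold above other cells. Markers of skeletal muscle summed to 1.57 and 2.79 CPM in those RGC-like cells, and their part in the Cdh15 level was not tested.

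The type II cadherin Cdh6 (chr15:13028701-13173675, GRCm38, as are all gene positions here) was the clearest CMZ-like member. Its level was 49.9 CPM (46.1 to 54) and 50.6 CPM (44.9 to 56.8) in CMZ-like cells against 5.6 and 4.95 CPM in all other cells. The ratios were 8.91 (7.75 to 10.3) in the pigmented and 10.2 (8.49 to 12.3) in the albino library. All 3 CMZ-like clusters carried Cdh6, with 64.9 and 66.5 CPM in cluster 5, 39.9 and 42.4 CPM in cluster 9 and 42.3 and 46.8 CPM in cluster 11. RPE-like cells had a like level of Cdh6, 43.4 and 47.8 CPM, and mesenchyme-like cells 24.5 and 36.7 CPM. RGC-like cells had 0.963 and 0.865 CPM. CMZ markers in RPE-like cells summed to 2206 and 2287 CPM, and their part in the Cdh6 level there was not tested.

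Cdh11 (OB-cadherin, known from mesenchyme) was highest in mesenchyme-like cells, at 251 CPM (234 to 269) and 229 CPM (207 to 253), 2.29-fold and 2.6-fold above other cells. It was also plentiful in RPC-like cells, with 159 and 154 CPM, and in CMZ-like cells, with 139 and 156 CPM. Neurogenic-like cells had 69.1 and 69.7 CPM, photoreceptor-like cells 26.5 and 30.5 CPM and RGC-like cells 22.2 and 18.6 CPM. Cdh11 was thus lower in photoreceptor-like and RGC-like than in progenitor-like cells of both libraries, while amacrine or horizontal-like cells had 97.3 and 108 CPM. The type II cadherin Cdh10 (4.46 and 7.58 CPM) and the GPI-anchored T-cadherin Cdh13 (4.78 and 5.25 CPM) were called higher in mesenchyme-like cells and in no other of the 10 classes.

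Cdh22 (chr2:165111507-165234853) was called higher in a single class. Amacrine or horizontal-like cells had 38.9 and 38.6 CPM of Cdh22, and all other cells had 0.506 and 0.634 CPM. The ratios were 76.9 (47.6 to 125) and 60.9 (34.1 to 108). In cells that carried only Xist, the pigmented log2 ratio of Cdh22 was lower, at 5.44.

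Cdh18 (chr15:22549022-23474418), a type II cadherin of neurons, marked RGC-like cells. Its level was 10.8 CPM (90 UMIs) and 12.4 CPM (129 UMIs) in RGC-like cells against 0.069 and 0.291 CPM in all other cells. The ratios were 157 (59.3 to 589) and 42.6 (22.5 to 91.1). All cells together had 94 and 139 UMIs of Cdh18, so these ratios rest on few UMIs outside the class. Cdh18 met the minimum of UMIs in each library through RGC-like cells. Within the class Cdh18 was uneven in both libraries. RGC-like cluster 14, led by Irx3 and Irx5, had 27.7 and 30.8 CPM and cluster 23 had 26.3 and 22.3 CPM, while cluster 6 had 7.19 and 7.36 CPM and cluster 7 had 1.54 and 0.372 CPM. Cluster 7 was led by Pou4f2, Isl1 and Igfbpl1. The related Cdh12 was called higher in RGC-like cells as well, at 3.85 and 4.42 CPM and 7.98-fold and 8-fold above other cells.

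Cdh9 was called higher in both RPC-like and photoreceptor-like cells. It stood at 10.4 and 8.64 CPM in RPC-like cells, against 3.01 and 2.65 CPM in other cells, and at 14.1 and 13.1 CPM in photoreceptor-like cells, against 4.45 and 3.47 CPM. Photoreceptor-like cluster 18, led by Gngt2 and Pdc, had 31 and 32.4 CPM of Cdh9, and cluster 10, led by Neurod4 and Prdm1, had 7.11 and 7.12 CPM. A stretch of 6.33% of the Cdh9 exons overlaps a gene on the other strand, and the sources used here do not give whether counting used the strand. Cdh20 was called higher in no class, with 10.3 and 8.53 CPM in RPC-like and 0.12 and 0.288 CPM in RGC-like cells.

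**Figure D2:**
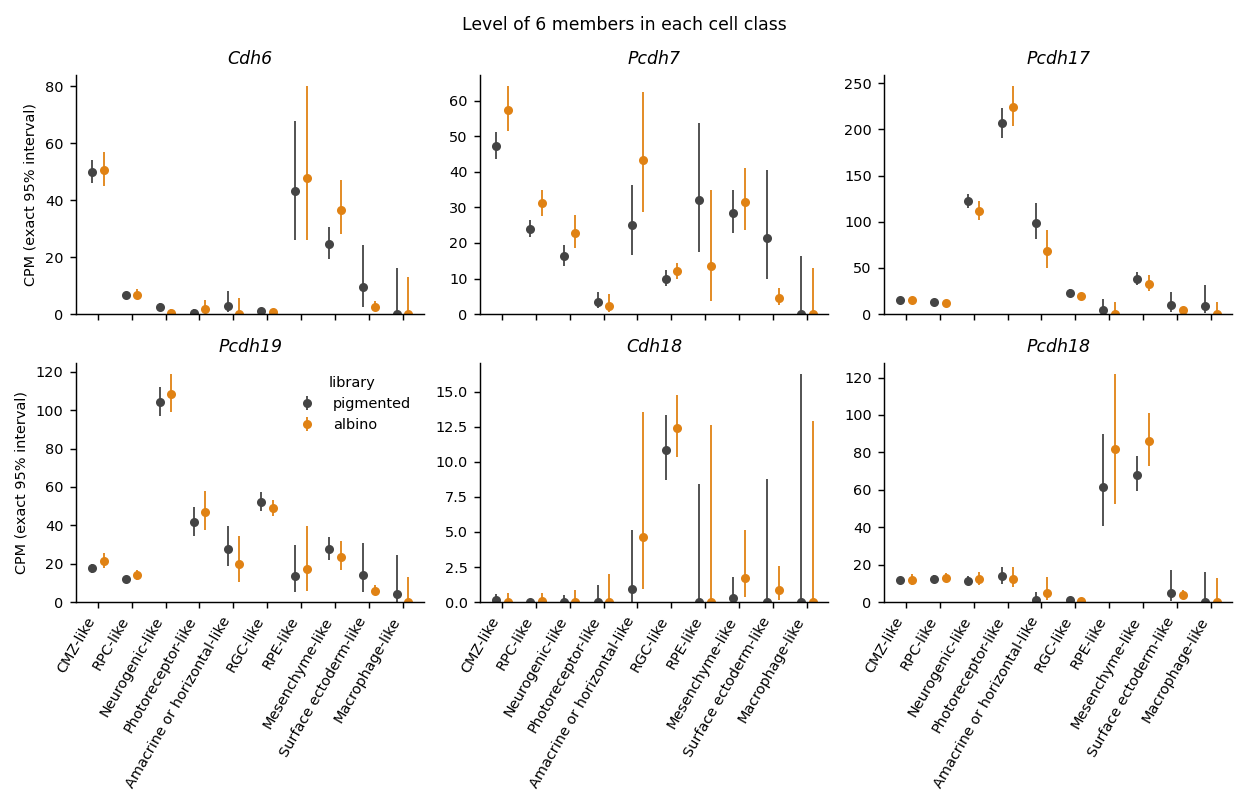
CPM (y axis) of 6 members in the 10 cell classes (x axis), with exact 95% counting intervals, for the pigmented (dark) and albino (orange) library. Cdh6 and Pcdh7 are high in CMZ-like cells, Pcdh17 peaks in photoreceptor-like cells at 206 and 224 CPM, Pcdh19 in neurogenic-like cells and Cdh18 in RGC-like cells, while Pcdh18 is high in RPE-like and mesenchyme-like cells.

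Of the delta-2 protocadherins, Pcdh17 was highest in photoreceptor-like and Pcdh19 in neurogenic-like cells. Pcdh17 (chr14:84443563-84539002) had 206 CPM (190 to 223) and 224 CPM (203 to 247) in photoreceptor-like cells, 6.5-fold and 8.51-fold above other cells. It had 122 and 112 CPM in neurogenic-like cells and 99.1 and 68 CPM in amacrine or horizontal-like cells. RPC-like cells, at 12.6 and 11.5 CPM, and RGC-like cells, at 23.1 and 20.1 CPM, were far lower.

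The neurogenic level of Pcdh17 came from part of the class. Cluster 20, led by Onecut1, Dll4 and Otx2, had 515 and 450 CPM, the highest level of Pcdh17 among the retinal clusters, and cluster 24 had 235 and 246 CPM. The other neurogenic-like clusters had 54.2 and 77.9 CPM (cluster 8), 34.4 and 41.4 CPM (cluster 15) and 11.3 and 8.32 CPM (cluster 19). The call of Pcdh17 for neurogenic-like cells, 4.16-fold and 4.27-fold, did not hold in each clustering tried, and the cause was not tested. With the members among the clustering genes its log2 ratios were -0.40 and 0.30 in place of 2.06 and 2.09, and at a clustering resolution of 0.5 they were 0.21 and 0.75.

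Pcdh19 (chrX:133582860-133688987), X-linked and known for epilepsy in heterozygous females, was highest in neurogenic-like cells at 104 CPM (97.1 to 112) and 109 CPM (98.9 to 119), 3.74-fold and 3.62-fold above other cells. Unlike Pcdh17, it was high across the neurogenic-like clusters 8 (137 and 126 CPM), 15 (86.8 and 94.1 CPM), 19 (75.6 and 85.2 CPM) and 24 (134 and 163 CPM), and lower in cluster 20 (53.9 and 43.4 CPM). RGC-like cells had 52.3 and 48.8 CPM, photoreceptor-like cells 41.6 and 46.8 CPM and RPC-like cells 12 and 14 CPM. Unnamed cluster 3, led by Sp8, Pou4f2 and Dlx1, had 90.1 and 79.6 CPM of Pcdh19.

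**Figure D3:**
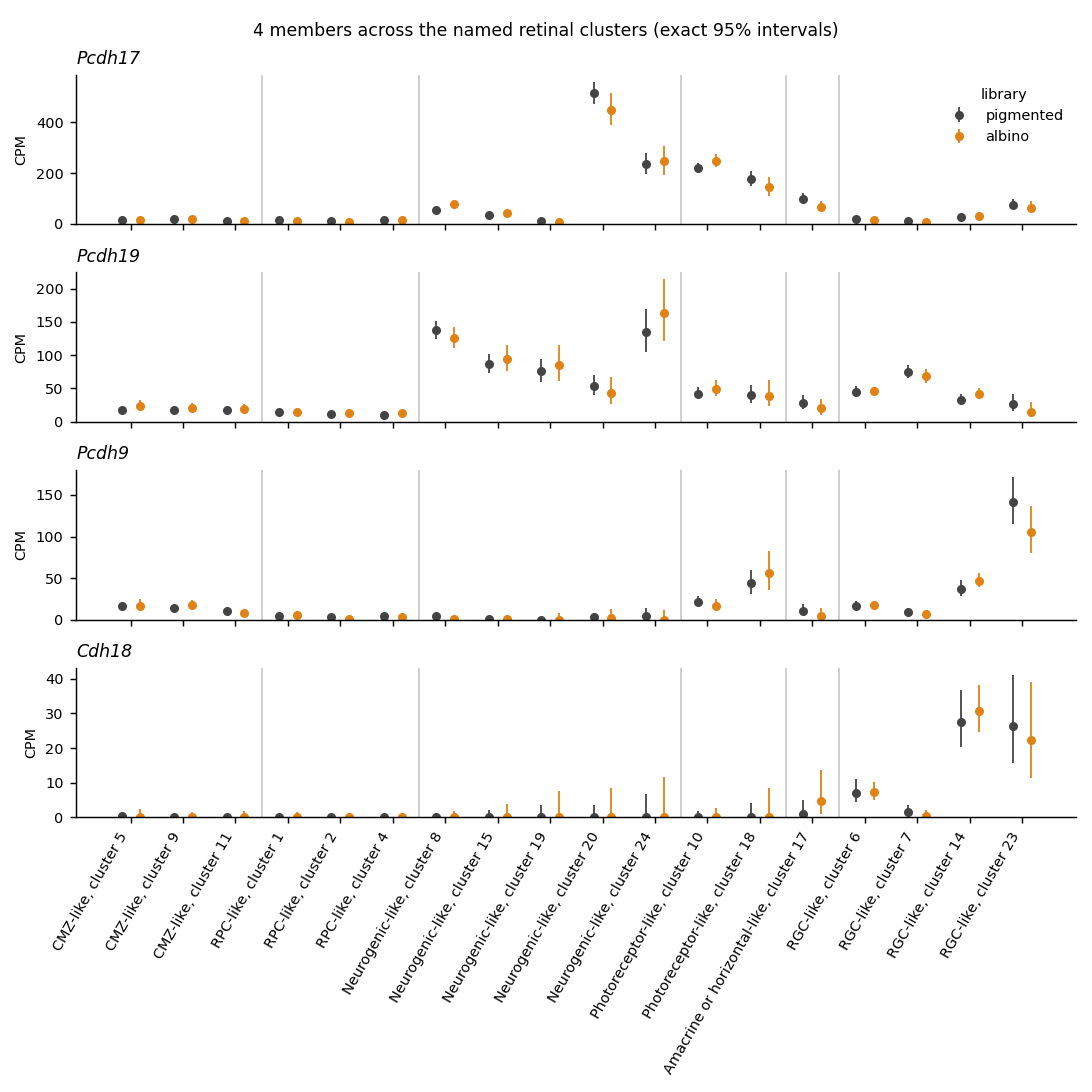
CPM (y axis, exact 95% counting intervals) of Pcdh17, Pcdh19, Pcdh9 and Cdh18 in the 18 named retinal clusters (x axis, grouped by class), pigmented (dark) and albino (orange). Pcdh17 peaks in cluster 20, Pcdh19 in clusters 8 and 24, Pcdh9 in cluster 23, and Cdh18 in clusters 14 and 23.

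Pcdh18 and Pcdh10 were both called higher in mesenchyme-like and RPE-like cells, and both lower in surface ectoderm-like and macrophage-like cells. Pcdh18 had 68.1 and 86.2 CPM in mesenchyme-like cells and 61.7 and 81.9 CPM in RPE-like cells, against 12.5 and 13 CPM in RPC-like, 13.8 and 12.5 CPM in photoreceptor-like and 1.2 and 0.384 CPM in RGC-like cells. Surface ectoderm-like cells had 4.75 and 3.56 CPM of Pcdh18. Pcdh10 (OL-protocadherin, a partner of the WAVE complex) had 49.4 and 48.4 CPM in mesenchyme-like and 45.7 and 30.7 CPM in RPE-like cells. Inside the retina Pcdh10 stood at 26.8 and 16.9 CPM in photoreceptor-like, 18 and 17.2 CPM in neurogenic-like, 15.5 and 16.4 CPM in RGC-like, 8.8 and 5.36 CPM in CMZ-like and 5.56 and 12.4 CPM in amacrine or horizontal-like cells, and at 2.26 and 1.66 CPM in RPC-like cells. The 10 mesenchyme markers summed to 50.3 CPM (22 UMIs) and 167 CPM (49 UMIs) in RPE-like cells, against 155 and 127 CPM over all cells. In mesenchyme-like cells they summed to 2967 and 3017 CPM. Of the 10, 7 in the pigmented and 8 in the albino library had no UMI in RPE-like cells. Their part in the Pcdh18 and Pcdh10 levels there was not tested. Pcdh8 (PAPC) was called higher in RGC-like cells, at 6.26 and 4.61 CPM, and in amacrine or horizontal-like cells, at 5.56 and 13.9 CPM. Its highest cluster was RGC-like cluster 23, with 55.3 and 35.3 CPM.

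Of the delta-1 protocadherins, Pcdh7 (chr5:57717967-58133230) was called higher in CMZ-like cells, as Cdh6 was. It had 47.3 CPM (43.6 to 51.3) and 57.5 CPM (51.4 to 64.2) in CMZ-like cells, 2.52-fold and 2.9-fold above other cells. Cluster 5, led by Aldh1a1, had 54.9 and 83.3 CPM of Pcdh7. Amacrine or horizontal-like cells had 25 and 43.3 CPM, second among the named classes in the albino library (interval 28.8 to 62.5 CPM). In the pigmented library RPE-like cells were second, at 32 CPM. RPC-like cells had 23.9 and 31.1 CPM, and photoreceptor-like cells had 3.36 and 2.18 CPM, the lowest of the retinal classes in both libraries. Exons of a gene on the other strand overlap 21.1% of the Pcdh7 exons.

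Pcdh9 was called higher in 4 classes and lower in RPC-like, neurogenic-like and macrophage-like cells. Its levels were 41.2 and 44.4 CPM in RPE-like, 28.5 and 27.1 CPM in RGC-like, 27.9 and 25.6 CPM in photoreceptor-like and 25.2 and 29.7 CPM in mesenchyme-like cells. Neurogenic-like cells had 2.6 and 0.932 CPM and RPC-like cells 3.74 and 3.77 CPM. Pcdh9 was thus low in neurogenic-like cells, where Pcdh19 was highest, while RGC-like cells had both and RPC-like cells little of either. Within RGC-like cells, cluster 23 had 141 and 106 CPM, cluster 14 had 37.1 and 46.7 CPM and cluster 7 had 8.95 and 7.06 CPM. X-linked Pcdh11x was called higher in mesenchyme-like cells at 11.1 and 15.2 CPM.

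The remaining unclustered members were low. Pcdh15, a tip-link protein of hair cells that also acts in photoreceptors, had 8.73 and 4.36 CPM in photoreceptor-like cells, 13.8-fold and 5.85-fold above other cells, and 4.63 and 4.64 CPM in amacrine or horizontal-like cells. In cells that carried only Xist, the pigmented log2 ratio of Pcdh15 in photoreceptor-like cells was 2.56 in place of 3.79. Pcdh20 was called higher in CMZ-like cells with 1.45 and 1.61 CPM from 18 and 9 UMIs, and in RPE-like cells with 6.86 and 6.83 CPM from 3 and 2 UMIs.

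By class, the members called higher numbered 22 of 63 in RGC-like cells, where 11.3% of all genes tested were, 15 in mesenchyme-like cells (8.38% of all genes) and 14 in amacrine or horizontal-like cells (6.53% of all genes). There were 7 each in photoreceptor-like cells (5.56% of all genes) and RPE-like cells (8.91%), 3 in CMZ-like cells (2.5%), 2 in neurogenic-like cells (3.33%), and 1 each in RPC-like (3.11%) and surface ectoderm-like cells (1.27%). Macrophage-like cells had none, where 9.05% of all genes were called. Members called lower numbered 21 in RPC-like cells (13.4% of all genes), 18 in CMZ-like cells (11.6%), 11 each in neurogenic-like (17.3%), amacrine or horizontal-like (17.6%) and RGC-like cells (22.3%), 7 in photoreceptor-like (14.5%) and 2 in mesenchyme-like cells (12%). In RPE-like (31 members, 17.7% of all genes), surface ectoderm-like (41, 21.6%) and macrophage-like cells (56, 41.3%) few UMIs lay behind the lower calls, and 2, 5 and 6 of them had intervals past 1 in both libraries.

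The clustered protocadherins were counted in small numbers, with 3918 UMIs for gamma, 1789 for beta and 241 for alpha genes over both libraries. All alpha genes share their last exon with other alpha genes, and all gamma genes share theirs with other gamma genes, so 3′ counts cannot be assigned to single alpha or gamma genes with certainty. Beta genes have separate last exons, apart from short stretches shared between Pcdhb21 and Pcdhb22. Sums over each family are therefore given first. The sources used here do not give whether reads in shared exons were counted or dropped. If they were dropped, the sums do not recover them, and alpha and gamma counts are too low. Alpha, beta and gamma levels are therefore not comparable with each other, and a low alpha count need not mean few transcripts.

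The beta genes summed to 31.4 and 40.7 CPM in RGC-like cells and 4.34 and 6.65 CPM in RPC-like cells. RGC-like over RPC-like levels were 7.24 (5.57 to 9.52) and 6.13 (4.67 to 8.17). Amacrine or horizontal-like cells had 36.1 and 27.8 CPM of beta genes, photoreceptor-like cells 21.5 and 30.5 CPM and neurogenic-like cells 9.45 and 12.6 CPM. Neuron-like classes thus lay above progenitor-like ones, but mesenchyme-like cells also had 26.1 and 42.5 CPM. The alpha genes had 8.79 CPM (73 UMIs) and 8.36 CPM (87 UMIs) in RGC-like cells and 1 and 0 UMIs in RPC-like cells, where 3 UMIs amount to 0.178 and 0.332 CPM. The gamma genes were spread more evenly, with 45.2 and 46 CPM in RGC-like and 26.2 and 25.1 CPM in RPC-like cells, ratios of 1.73 (1.5 to 1.99) and 1.84 (1.57 to 2.16).

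**Figure D4:**
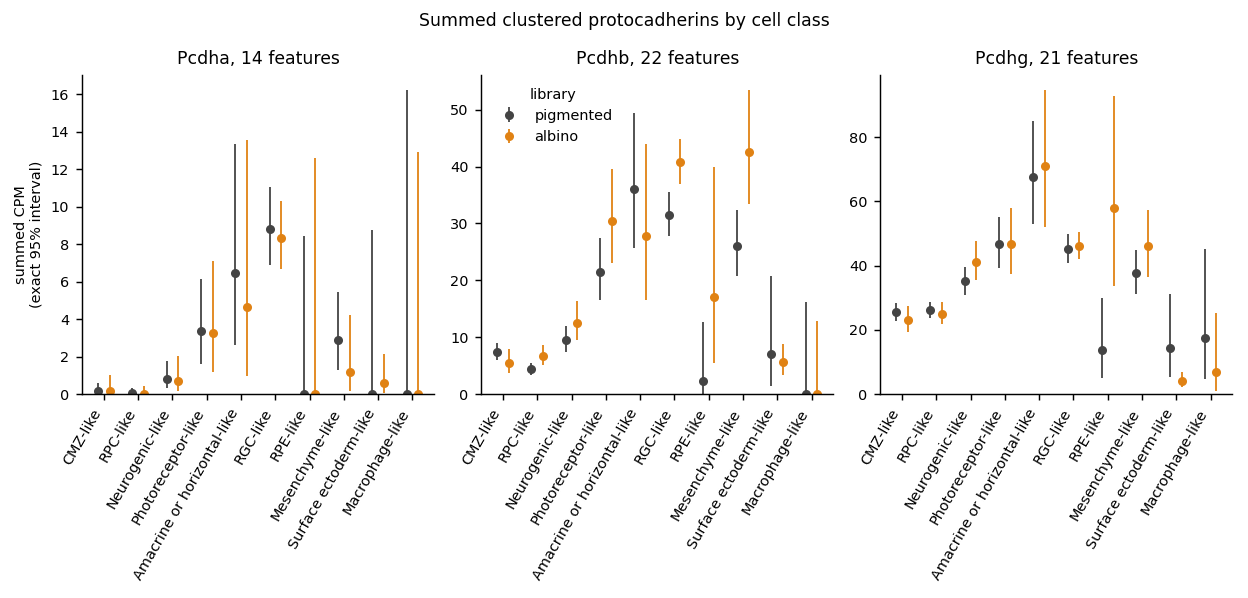
Summed CPM (y axis, exact 95% counting intervals) of the alpha, beta and gamma protocadherins in the 10 cell classes (x axis), pigmented (dark) and albino (orange). Alpha and beta sums are several times higher in RGC-like than in RPC-like cells, and gamma sums differ less.

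Of the 15 single beta genes tested, 14 were called higher in RGC-like cells, where 11.3% of all genes were, 11 of the 14 with intervals past 1 in both libraries. They were Pcdhb2, Pcdhb3, Pcdhb5, Pcdhb7, Pcdhb9, Pcdhb11, Pcdhb14, Pcdhb16, Pcdhb17, Pcdhb18, Pcdhb19, Pcdhb20, Pcdhb21 and Pcdhb22, with levels from 0.723 CPM (Pcdhb3) to 4.1 CPM (Pcdhb17) in the pigmented and from 0.865 CPM (Pcdhb11) to 5.28 CPM (Pcdhb7) in the albino library. Pcdhb17 stood 4.75-fold and 4.08-fold above other cells. Pcdhga1 was called higher in RGC-like cells too. So were Pcdhga11, at 5.78 and 4.9 CPM, and the Pcdha11 feature ENSMUSG00000102206, at 2.53 and 2.21 CPM. This feature had 21 and 23 UMIs in RGC-like cells, and 0.241 and 0.116 CPM in all other cells. It met the minimum of UMIs in each library through RGC-like cells, as Cdh18 did. Exons of genes on the other strand overlap 29% of the Pcdhga11 exons, 44.3% of those of this Pcdha11 feature and 55.2% of the Pcdhga10 exons. Other members overlap such genes as well. In amacrine or horizontal-like cells 10 of the 14 members called higher were clustered genes, and of these Pcdhga10, at 5.56 and 12.4 CPM, had intervals past 1 in both libraries. The clustered genes called higher in photoreceptor-like cells (Pcdhb3, Pcdhb11, Pcdhga2), RPE-like cells (Pcdhb4) and mesenchyme-like cells (Pcdhb5, Pcdhb9, Pcdhb14, Pcdhb19, Pcdhb20, Pcdhb21, Pcdhgb1, Pcdhgc3) did not.

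To compare shares of cells at 1 depth, each cell was thinned to 5000 UMIs, which left out 368 pigmented and 294 albino cells. A UMI of at least 1 of the 43 clustered members was then found in 31% and 33.4% of RGC-like cells, 39.7% and 42% of amacrine or horizontal-like cells, 14.3% in both libraries of RPC-like cells, and 10.5% and 4% of macrophage-like cells. UMIs of 2 or more clustered genes were found in 4.87% and 6.78% of RGC-like cells. For Pcdh17, 49.2% and 50% of photoreceptor-like cells had a UMI (59.8% and 66.9% before thinning, at median depths of 8046 and 8560 UMIs), against 1 of 19 and 0 of 25 macrophage-like cells (median depths 7511 and 9579), where 0 of 25 allows up to 13.7%. For Cdh6, 21% and 22% of CMZ-like cells had a UMI (44.3% and 45.9% before thinning), against 0.181% and 0.452% of RGC-like cells (1.24% and 1.16% before). Median depths were 14273 and 14076 UMIs in CMZ-like and 14411 and 14472 UMIs in RGC-like cells. Pcdh19 was found in 35.5% and 38.4% of neurogenic-like cells (55.2% and 56.2% before) against 5.3% and 5.75% of RPC-like cells (10.2% and 11.7% before), with median depths between 9932 and 10805 UMIs. Cdh18 was found in 5.78% and 5.87% of RGC-like cells (11.7% and 13.9% before) and in 0 of 1395 and 0 of 713 RPC-like cells, which allows up to 0.264% and 0.516%. These shares thus follow the same classes as the levels, and the clustered genes are found in a minority of the cells of every class at this depth. If reads in shared exons were dropped, the shares for the clustered genes are too low.

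Between the libraries over all cells, 17 of 72 members were higher in the albino library by at least 1.5-fold, where 5.69% of all 16072 genes were, and 3 were lower, where 4.57% were. Intervals lay past 1 for 13 of the 17 and for 1 of the 3. Of the 17, 11 were beta protocadherins, led by Pcdhb6 (0.226 and 0.535 CPM, ratio 2.37, interval 1.19 to 4.85) and Pcdhb3 (0.377 and 0.825 CPM, ratio 2.19, interval 1.28 to 3.79). The others of the 11 were Pcdhb4 (ratio 1.97), Pcdhb7 (1.6), Pcdhb8 (1.77), Pcdhb9 (1.86), Pcdhb16 (1.54), Pcdhb17 (1.69), Pcdhb18 (1.7), Pcdhb19 (1.84) and Pcdhb21 (1.53). Cdh18 had 1.42 and 3.1 CPM, a ratio of 2.19 (1.67 to 2.87), and Cdh12 had 0.905 and 1.45 CPM, a ratio of 1.6 (1.11 to 2.31). Pcdhgb2 had a ratio of 1.79 (1.14 to 2.83), and the intervals of Cdh1 (2.02), Pcdha9 (2.15) and Pcdhgb1 (1.6) included 1. The beta family summed to 12.7 and 19.1 CPM, a ratio of 1.5 (1.37 to 1.66), the alpha family to 1.79 and 2.43 CPM, a ratio of 1.36 (1.04 to 1.77), and the gamma family to 32.9 and 33.8 CPM, a ratio of 1.03 (0.962 to 1.1).

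RGC markers summed to 3594 and 6486 CPM over all cells and RGC-like cells were 9.84% and 20% of the cells. When each albino cluster was weighted to its pigmented share, 6 of the 17 stayed at least 1.5-fold higher (Pcdha9, Pcdhb3, Pcdhb4, Pcdhb6, Pcdhb19 and Pcdhgb2). No other member was then higher, so the count was 6 of 72 members, where 2.58% of all genes were. The ratio of Cdh18 was then 1.09 and that of Cdh12 was 1.14. The summed 19 beta genes went from a ratio of 1.51 to 1.27. The 3 lower members stayed lower and Cdh1 joined them at 0.44, which made 4 of 72 members, where 3.72% of all genes were lower.

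Cdh5 (VE-cadherin of endothelium) was the member with the greatest gap, 2.52 and 0.312 CPM from 167 and 14 UMIs, with a ratio of 0.124 (0.0664 to 0.214). A single cell held 63.5% of its pigmented UMIs and another 85.7% of its albino UMIs. Endothelial markers summed to 54.2 and 38 CPM over all cells, and their part in the Cdh5 ratio was not tested. Without unnamed clusters 12, 22 and 28 its log2 ratio was -0.47 in place of -2.92, and in cells that carried only Xist it was 2.63. Pcdhga4 (ratio 0.581) and Pcdhga6 (0.66) were lower with intervals that included 1.

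**Figure D5:**
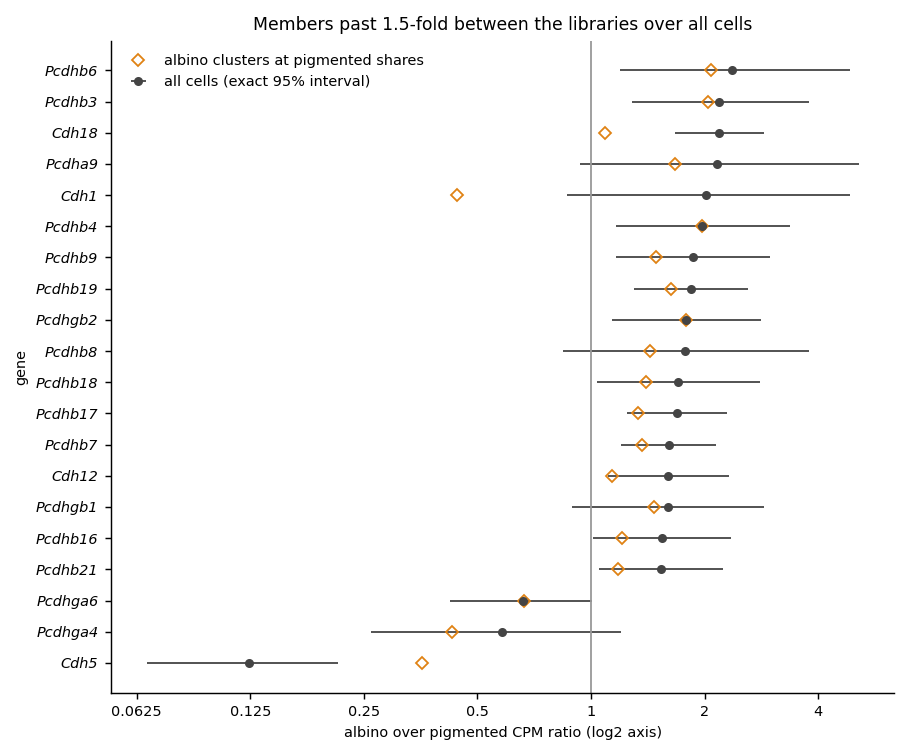
Albino over pigmented CPM ratio (x axis, log2 axis) of the 20 members past 1.5-fold over all cells (y axis): filled points with exact 95% counting intervals for all cells, open diamonds with the albino clusters weighted to the pigmented shares. The diamonds of Cdh18 and Cdh12 lie near 1, those of Pcdhb6, Pcdhb3 and Pcdhb4 stay near 2, and that of Cdh1 lies below 1.

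The members with the most UMIs stayed within 1.5-fold over all cells. Cdh11 had 116 and 93.3 CPM (ratio 0.802, interval 0.772 to 0.833), Cdh4 had 49.2 and 40 CPM (ratio 0.812, 0.766 to 0.86) and Pcdh17 had 39.6 and 34.5 CPM (ratio 0.87, 0.817 to 0.927). With the albino clusters weighted, the log2 ratios of Cdh11 and Pcdh17 were -0.03 and -0.04. X-linked Pcdh19 had 36.3 and 37.5 CPM (ratio 1.03, 0.97 to 1.1) and Pcdh11x had 4.12 and 3.52 CPM (ratio 0.856, 0.699 to 1.04). The sex mix of the pools differed, and in cells that carried only Xist their log2 ratios were 0.09 and 0.15.

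Within classes, most of the members past 1.5-fold either way had intervals that included 1. Of 34 members with 20 UMIs in RPC-like cells 2 were higher and 4 lower (2.39% and 3.41% of all genes), and none of these had an interval past 1. Of 29 in CMZ-like cells none was higher and 5 were lower (2.77% and 4.87% of all genes). Pcdh10 was the member whose interval stayed past 1, at 8.8 and 5.36 CPM in CMZ-like cells (ratio 0.609, 0.392 to 0.919), and it was lower in photoreceptor-like cells too, at 26.8 and 16.9 CPM (0.628, 0.401 to 0.962). In photoreceptor-like cells 2 of 14 members were lower and none higher (6.71% and 4.28% of all genes). Pcdh7 was higher in 3 progenitor-like classes by less than the fold asked for, with ratios of 1.22 (1.06 to 1.39) in CMZ-like, 1.3 (1.12 to 1.52) in RPC-like and 1.4 (1.06 to 1.84) in neurogenic-like cells.

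In RGC-like cells 8 of 51 members were higher and 6 lower in the albino library (3.01% and 3.96% of all genes). Pcdhb7 had 3.01 and 5.28 CPM (ratio 1.75, 1.08 to 2.94) and Pcdhga7 had 2.77 and 5.57 CPM (ratio 2.01, 1.22 to 3.42). Cdh15 had 4.94 and 2.59 CPM (ratio 0.525, 0.311 to 0.875). The other 11 had intervals that included 1. RGC-like cells were spread unevenly over their clusters, with 250 of 565 pigmented and 204 of 691 albino cells in cluster 7 and 174 and 289 in cluster 6, and the part of this in the ratios was not tested.

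In neurogenic-like cells 2 of 23 members were higher and 1 lower (2.56% and 5.23% of all genes), with an interval past 1 for Pcdhga5 (1.78 and 4.19 CPM, ratio 2.35, 1.09 to 5.23). In mesenchyme-like cells 2 of 15 were higher and none lower (6% and 7.9% of all genes), and in amacrine or horizontal-like cells 1 of 7 was higher and none lower (7.74% and 8.22%), without an interval past 1. Of 6 in RPE-like cells none was higher and 1 lower (17.6% and 11.2% of all genes): Cdh11 had 89.2 and 37.6 CPM (ratio 0.421, 0.195 to 0.839), and with every cell weighted equally its log2 ratio was -0.19. In surface ectoderm-like cells none of 6 was higher and 4 were lower (13% and 31.9% of all genes), with intervals past 1 for Cdh4 (ratio 0.33) and Pcdh7 (ratio 0.208). These cells numbered 29 and 85, carried RGC markers at 3131 and 5491 CPM, and had medians of 10488 and 16989 UMIs, and the part of these in the ratios was not tested. With a mitochondrial limit of 5% the log2 ratio of Cdh4 there was -0.44. Macrophage-like cells had no member with 20 UMIs (11.9% of all genes were higher and 9.9% lower). In unnamed cluster 0, where the RPC markers were the highest list, 6 of 20 members were higher and 2 lower (2.89% and 5.07% of all genes), with intervals past 1 for Cdh24 (5.4 and 9.45 CPM, ratio 1.75, 1.04 to 2.96), Pcdh19 (7.38 and 13.1 CPM, ratio 1.77, 1.14 to 2.76) and Pcdh9 (5.4 and 2.23 CPM, ratio 0.412, 0.163 to 0.92).

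Of 25 cytoplasmic partners of cadherins (catenins, actin linkers, WAVE complex and cleaving enzymes), 24 could be tested over all cells, 11 with ratios above 1 and 13 below, with a median log2 ratio of -0.02 against -0.05 over all genes. The most counted were Ctnnb1 (beta-catenin), with 167 and 155 CPM, Ctnnbip1 with 142 and 157 CPM and Afdn (afadin) with 89.7 and 87.8 CPM. Ctnna2 (the alpha-catenin of neurons) was the 1 partner past 1.5-fold, with 19 and 29.2 CPM (ratio 1.53, 1.42 to 1.66). Within RGC-like cells Ctnna2 had 65.3 and 78.8 CPM (ratio 1.21, 1.08 to 1.35). It was called higher in RGC-like cells together with Jup, Cyfip2 and Adam10, while Ezr, Actn1 and Wasf2 were called lower there. Ctnna2 was called higher in amacrine or horizontal-like cells too, and Adam10 in macrophage-like cells. Of 25 other genes of the cadherin superfamily 16 could be tested, 7 above 1 and 9 below, with a median of -0.08. The most counted were Clstn1 (52.8 and 50.7 CPM), Celsr2 (39 and 39.9 CPM) and Fat1 (34.2 and 29.2 CPM). Ret (5.79 and 12.3 CPM, ratio 2.13) was higher and Dsg2 (ratio 0.654, 0.36 to 1.15) lower. Dsc3 was higher too, at 0.136 and 0.379 CPM from 9 and 17 UMIs (ratio 2.79, 1.18 to 7.11). Within RGC-like cells the ratio of Ret was 1.39 (1.19 to 1.62) and in photoreceptor-like cells 0.803 (0.562 to 1.13). Celsr3, Clstn2, Clstn3 and Ret were called higher in RGC-like cells. Celsr3 and Ret were also called higher in photoreceptor-like, Celsr3 in amacrine or horizontal-like and Clstn2 in mesenchyme-like cells.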

How the data were processed

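Values in the deposited tables are raw UMI counts. Cell Ranger 2.1.1 and mm10 stand in the submitters' processing notes, cellranger 5.0.1 in the matrix headers, and which made the counts is unsettled. Barcodes under 500 genes or over 10% mitochondrial UMIs were dropped, and cells with a Scrublet score over 0.25 (2.33% and 1.36% of barcodes) were removed. That limit was set after the automatic one had marked 6 albino cells. The 2000 most variable genes, without the members and both adhesion lists, gave 30 components, 15 neighbours and Leiden clusters (resolution 1.0, Scanpy 1.11.5, leidenalg 0.10.2). Clusters were named from marker lists by mean log2 fold with a margin of 0.3 and at least 3 markers detected. Levels have exact Poisson intervals and ratios have conditional exact ones (SciPy 1.17.1). The rules for class calls and library calls were tested on simulated counts, and filtering, clustering, naming, thinning and weighting were not.

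Every member with 20 UMIs was counted. Named with values are the classical, Cdh13 and unclustered members called higher for a class. So are the members called between libraries over all cells and the 10 with the most UMIs. Clustered members called higher for a class are named or counted, some with values or a range. Within classes, members called between libraries with an interval past 1 are named. Other calls enter the counts and not all are named: Cdh8, called lower in RGC-like cells, had 1.08 and 1.63 CPM there. Of each list the 3 with the most UMIs and those called are named. Members and lists were chosen with earlier results of these data known. A count test was not run, since each group has 1 library.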

Additional observations from a re-analysis of the deposited data

How the results depend on the processing

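No paired analysis was possible because each group has 1 library. The 47 members called higher in a class became 28 in cells with Xist and no Y-linked UMI, 31 at a minimum of 50 UMIs and 24 at 3-fold, and were 37 to 66 under the other alternatives. The 20 members past 1.5-fold over all cells became 32 with no minimum of UMIs, 6 at 2-fold and 10 with the albino clusters weighted to the pigmented shares. The 38 calls within classes became 368 with no minimum, 9 at 50 UMIs and 13 at 2-fold. Fewer cells, or another limit on UMIs or fold, enter each of these alternatives by construction, other than the weighting. Among 848 single values under 14 settings, 787 stayed within the intervals of the main value, 58 moved beyond them and 3 turned round: the log2 ratio of Pcdh17 in pigmented neurogenic-like cells was -0.40 with members in the clustering, that of Cdh5 between libraries was 2.63 in cells with only Xist, and that of Cdh1 was -0.93 after weighting. The cause was not tested. The weighting, and leaving out clusters 12, 22 and 28 or the surface ectoderm-like class, were chosen after seeing the data. Few UMIs limit the single clustered protocadherins, and few cells limit the RPE-like and macrophage-like classes.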
